A study of Mus musculus with 8 samples.

Results

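Autophagy core and receptor genes were read in mouse embryonic stem cells (ESCs) as a list of 35 gene symbols. The list holds cargo receptors, the Atg8 family, and the kinase, lipid and conjugation machinery of the autophagosome. Of these, 34 genes had a probe set with 1 gene symbol, out of 18193 genes on the arrays, and Optn was not analysed here. Each gene was read from its brightest probe set, by the mean of the 8 arrays. Expression was measured on Affymetrix GeneChips, 1 array per sample. The ESCs were kept on gelatine without feeders or serum in N2B27 medium with LIF, the MEK inhibitor PD0325901 (1 μM) and the GSK3 inhibitor CHIR99021 (3 μM), the mixture called 2i. Released cells (labelled Resc, 3 arrays) had 60 h with 64 μM of 10058-F4, a small molecule that disturbs the pairing of MYC with MAX, and then 48 h in 2i without it. Inhibitor-treated cells (labelled MYCi, 2 arrays) had the same 60 h and no withdrawal. Control cells (labelled DMSO, 3 arrays) had 60 h with the solvent alone, at the volume used for the compound. No control for the extra 48 h of culture after withdrawal is among these arrays, so time in culture and release cannot be told apart between released and DMSO cells. The labels do not give the ESC line, nor whether arrays of 1 group stand for separate cultures, and the p-values cover the spread between arrays only.

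Macroautophagy encloses cytoplasm in a double membrane, the autophagosome, which fuses with lysosomes for degradation. The ULK kinase complex starts it, the class III phosphatidylinositol 3-kinase (PI3K) complex marks the membrane with the lipid PI3P, and ATG9 and ATG2 supply the membrane with lipid. A ubiquitin-like conjugation system then attaches Atg8 proteins (the LC3 and GABARAP families) to it, and receptors such as p62 bind cargo and Atg8 proteins together. Transcript levels say how much mRNA of these parts was present, and autophagic flux was not measured.

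With the inhibitor, the receptor gene Sqstm1 rose most, 4.53-fold, followed by the Atg8 gene Gabarapl1 (2.14-fold), the ULK complex gene Rb1cc1 (1.84-fold, on 1 of its 3 probe sets) and the Atg8 gene Gabarap (1.66-fold). Gabarapl2, also an Atg8 gene, went the other way and fell 1.75-fold. After withdrawal the log2 differences from DMSO were between -0.26 and 0.21 for the first 4 and did not pass the test, while Gabarapl2 stood 1.44-fold above DMSO. Under some alternative settings Sqstm1 and Gabarapl1 did pass as higher, and Rb1cc1 as lower, in released than in DMSO cells. Of the 34 members, 16 were higher in inhibitor-treated than in DMSO cells at an adjusted p under 0.05, where 19.2% of all genes were, and 5 were lower, where 22.3% of all genes were (41.5% in either direction). Arrays of both groups did not overlap for 20 members that were higher and 9 that were lower, where 60.5% of all genes did not overlap. At a log2 difference of at least 0.5 the members counted 8 higher and 2 lower, against 10.0% and 8.05% of all genes. The median log2 difference was 0.19 over the members and -0.06 over all genes. When each array was centred on its median, 13 members were higher and 7 lower with the inhibitor, where 17.4% and 28.2% of all genes were.

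The members were brighter than most genes, with a median at the 72.2nd percentile of mean level, and brighter genes passed more often. Without genes under the 30th percentile of level, 17 of 33 members were higher and 6 lower, against 27.4% and 30.6% of the 12735 genes then tested. RMA, the authors' normalization, makes the distribution of probe intensities the same on all arrays before probes are summarised. The median levels of the arrays stayed close, at 4.54 to 4.59. A change shared by most transcripts therefore does not show, and fewer cells and less RNA per cell cannot be told apart.

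**Figure D1:**
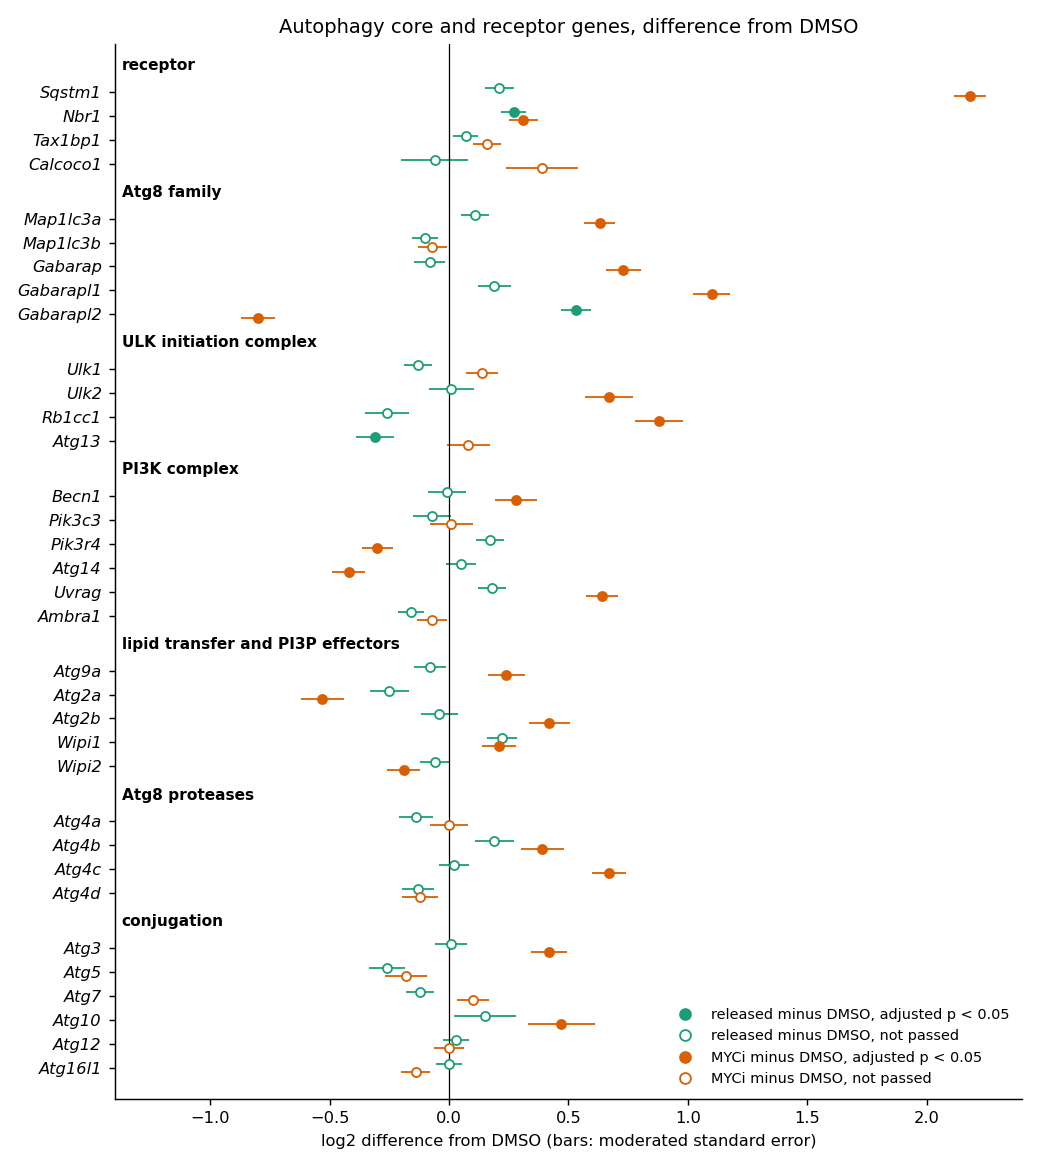
Log2 difference from DMSO (x axis) of the 34 measured members, ordered by role (y axis), for released cells (green) and inhibitor-treated cells (orange), with moderated standard errors as bars; filled points passed an adjusted p of 0.05. Sqstm1 at 2.18 and Gabarapl2 at -0.80 are the ends of the inhibitor-treated range, and the released values lie between -0.31 and 0.53.

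As a check of identity, the log2 differences of the ESC markers between inhibitor-treated and DMSO cells were -0.04 for Pou5f1, 0.12 for Sox2 and -0.10 for Nanog (adjusted p = 0.666, 0.246 and 0.219). Of the 12 ESC markers, 4 rose and 4 fell, with Utf1 at -1.79 ± 0.061 (adjusted p = 4.04e-08), Zfp42 at 0.69 ± 0.073 (adjusted p = 3.85e-05) and Tdgf1 at -0.38 ± 0.062 (adjusted p = 0.000678). For this and the other marker lists, the shares of all genes with the inhibitor were 19.2% higher and 22.3% lower. The mean log2 level of 12 ESC markers was 11.03 to 11.05 on released arrays, 10.93 and 10.94 on inhibitor-treated arrays, and 11.01 to 11.03 on DMSO arrays. Trophectoderm markers moved with the inhibitor, 6 of 10 upward, with a mean level of 5.49 to 5.62 on released, 6.79 and 6.88 on inhibitor-treated, and 5.49 to 5.60 on DMSO arrays. Among them Krt18 rose by 5.0 ± 0.15 (adjusted p = 1.86e-08), Krt8 by 3.24 ± 0.086 (adjusted p = 1.25e-08), Eomes by 2.23 ± 0.070 (adjusted p = 2.5e-08) and Gata3 by 1.28 ± 0.12 (adjusted p = 1.99e-05). Of the other defining genes, Cdx2 differed by -0.20 ± 0.14 (adjusted p = 0.271) and Elf5 by 0.08 ± 0.11 (adjusted p = 0.578) between inhibitor-treated and DMSO cells. The means of Elf5 and Gata3 on DMSO arrays, 2.89 and 2.52, were in the range of the bacterial Trpn control probe sets (2.15 to 2.95). Gata3 was at 3.58 and 4.03 on inhibitor-treated arrays. Between released and DMSO cells, 1 trophectoderm marker of 10 was higher and 2 were lower, where 4.66% and 4.01% of all genes were. They were Krt18 at 1.59 ± 0.13 (adjusted p = 0.000116), Tfap2c at -1.08 ± 0.089 (adjusted p = 0.000116) and Krt7 at -1.21 ± 0.18 (adjusted p = 0.00293). The marker lists of fibroblasts, endoderm, mesoderm and neural cells had 0, 0, 0 and 1 members higher and 1, 3, 1 and 2 members lower with the inhibitor. The difference between 3′ and 5′ Gapdh control probe sets, a measure of RNA integrity, was -0.133 to -0.117 on released, -0.148 and -0.216 on inhibitor-treated, and -0.130 to -0.108 on DMSO arrays. The part of trophectoderm-marker expression and of RNA integrity in the changes below was not tested.

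MYC with MAX, and also the lysosomal regulators of the MiT/TFE family, bind DNA at an E-box (CACGTG), and promoter windows of RefSeq (250 bases before to 50 after each start, GRCm38.p6) were searched for it on both strands. At least 1 window was found for 29 of the 35 listed genes, 33 windows in all. An E-box stood in 4 of the 33 windows (12.1%), against 7.15% of 32851 windows of all genes. The 4 genes with it were Atg3, Atg14, Atg5 and Atg7, all of the conjugation system or the PI3K complex. Their log2 differences with the inhibitor were 0.42 for Atg3, -0.42 for Atg14, -0.18 for Atg5 and 0.10 for Atg7, of which the values of Atg3 and Atg14 passed the test. The E-box promoters are shown from 150 bases before to 50 after the start, with the E-box in capitals, because these members carry the sequence that the inhibited protein pair binds. They lie at chr16:45158679-45158878 (plus strand), chr14:47568385-47568584 (minus strand), chr10:44268189-44268388 (plus strand) and chr6:114670946-114671145 (plus strand), in this order.
Atg3: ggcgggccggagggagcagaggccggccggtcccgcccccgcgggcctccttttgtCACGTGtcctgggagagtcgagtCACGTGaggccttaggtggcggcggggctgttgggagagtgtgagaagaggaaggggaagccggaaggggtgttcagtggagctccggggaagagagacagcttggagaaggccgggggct
Atg14: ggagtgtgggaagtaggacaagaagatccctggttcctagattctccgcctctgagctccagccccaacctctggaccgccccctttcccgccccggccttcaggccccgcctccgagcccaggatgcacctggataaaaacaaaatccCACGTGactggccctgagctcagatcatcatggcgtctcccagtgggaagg
Atg5: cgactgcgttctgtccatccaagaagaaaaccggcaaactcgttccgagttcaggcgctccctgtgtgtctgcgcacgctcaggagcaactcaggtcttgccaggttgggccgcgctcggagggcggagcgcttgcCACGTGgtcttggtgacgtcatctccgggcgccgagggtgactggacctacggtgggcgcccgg
Atg7: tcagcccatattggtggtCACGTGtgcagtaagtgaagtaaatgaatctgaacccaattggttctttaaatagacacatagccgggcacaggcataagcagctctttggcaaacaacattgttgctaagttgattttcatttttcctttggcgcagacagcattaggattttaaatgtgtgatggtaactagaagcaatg

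The core of the antioxidant response element bound by NRF2 (TGACNNNGC, both strands) stood in 4 of the 33 windows (12.1%), against 12.4% of all windows, and the genes were Atg13, Map1lc3b, Tax1bp1 and Ulk2. The C/EBP-ATF element (TTGCATCA, both strands) stood in 0 of the 33 windows, against 0.895% of all windows. The promoters of Sqstm1, Gabarapl1 and Gabarapl2 held none of the 3 motifs in the searched windows. They are shown over the same stretch, with no capitals since no motif matched, so that the rising Sqstm1 and Gabarapl1 can be read beside the falling Gabarapl2. They lie at chr11:50210771-50210970 (minus strand), chr6:129533042-129533241 (plus strand) and chr8:111940553-111940752 (plus strand). A match in such a window is a description of letters and not a bound site, and sites outside the window were not searched.
Sqstm1: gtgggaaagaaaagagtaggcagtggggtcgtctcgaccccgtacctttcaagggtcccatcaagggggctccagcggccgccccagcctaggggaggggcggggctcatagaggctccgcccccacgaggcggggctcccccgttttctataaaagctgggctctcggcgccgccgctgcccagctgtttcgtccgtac
Gabarapl1: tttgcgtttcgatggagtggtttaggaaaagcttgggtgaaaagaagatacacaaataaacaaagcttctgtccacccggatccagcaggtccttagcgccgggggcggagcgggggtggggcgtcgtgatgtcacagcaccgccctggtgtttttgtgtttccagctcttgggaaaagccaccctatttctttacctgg
Gabarapl2: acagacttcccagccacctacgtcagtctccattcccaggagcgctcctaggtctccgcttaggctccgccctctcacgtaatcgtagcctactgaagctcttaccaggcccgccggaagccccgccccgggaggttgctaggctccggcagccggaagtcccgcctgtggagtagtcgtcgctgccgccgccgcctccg

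Among the receptors, 2 of 4 measured genes rose with the inhibitor and 0 fell. Over all genes the shares were 19.2% higher and 22.3% lower, here and for each role below. With 4 to 6 measured genes per role, such counts rest on few genes. Sqstm1 encodes p62, which binds ubiquitinated cargo and also KEAP1, the repressor of NRF2. Its log2 levels were 10.00, 10.10 and 10.04 in released cells, 12.04 and 11.99 in inhibitor-treated cells, and 9.78, 9.91 and 9.81 in DMSO cells. The inhibitor-treated arrays stood far above the rest, and the released arrays lay just above the DMSO arrays without overlap. The log2 difference was 2.18 ± 0.067 between inhibitor-treated and DMSO cells (adjusted p = 2.35e-08) and -1.97 ± 0.067 between released and inhibitor-treated cells (adjusted p = 3e-08). Between released and DMSO cells it was 0.21 ± 0.060 and missed the threshold (adjusted p = 0.0645). A dim second probe set of Sqstm1 (mean level 3.80) rose by 1.39 and was 0.13 lower in released than in DMSO cells, which was not past the threshold. Errors are moderated standard errors of limma from 3 released, 2 inhibitor-treated and 3 DMSO arrays, here and for all values that follow.

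Nbr1, a receptor related to p62 in its domains, was 0.31 ± 0.061 higher in inhibitor-treated than in DMSO cells (adjusted p = 0.00217). On release it differed by -0.05 ± 0.061 (adjusted p = 0.578), and it was 0.27 ± 0.054 higher in released than in DMSO cells (adjusted p = 0.0154). This second call ended without released replicate 2, released replicate 3 or DMSO replicate 1. A dimmer probe set of Nbr1 (mean level 7.21) gave 0.24 with the inhibitor (adjusted p = 0.0361 when every probe set was tested). Between released and DMSO cells it gave 0.10 and did not pass (adjusted p = 0.471). Tax1bp1, a receptor that also takes part in ubiquitin signalling, differed by 0.16 ± 0.059 with the inhibitor (adjusted p = 0.0578). Calcoco1, known in human cells as a receptor for the endoplasmic reticulum, differed by 0.39 ± 0.15 with the inhibitor (adjusted p = 0.0685). In released against inhibitor-treated cells Calcoco1 was lower, at -0.45 ± 0.15 (adjusted p = 0.0409), and this call ended when any 1 of 5 arrays was left out.

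The Atg8 family divided, with 3 of 5 members higher in inhibitor-treated than in DMSO cells, 1 lower and 1 not past the test. Atg8 proteins coat the autophagosome and are the docking sites of receptors. Gabarapl1 had log2 levels of 8.36, 8.44 and 8.46 in released, 9.39 and 9.28 in inhibitor-treated, and 8.14, 8.34 and 8.23 in DMSO cells. It was higher on both inhibitor-treated arrays than on any other, by 1.10 ± 0.078 over DMSO (adjusted p = 3.05e-06), and lower by 0.91 after release (-0.91 ± 0.078; adjusted p = 9.2e-06). Its second probe set also rose with the inhibitor, by 1.17, and was lower on release (adjusted p = 1.6e-05 when every probe set was tested).

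Gabarap had log2 levels of 9.48, 9.39 and 9.52 in released, 10.33 and 10.23 in inhibitor-treated, and 9.55, 9.62 and 9.47 in DMSO cells. The difference was 0.73 ± 0.073 with the inhibitor (adjusted p = 2.83e-05) and -0.81 ± 0.073 on release (adjusted p = 1.3e-05), and released and DMSO arrays overlapped. Map1lc3a, which encodes LC3A, had 9.30, 9.28 and 9.27 in released, 9.81 and 9.80 in inhibitor-treated, and 9.09, 9.22 and 9.22 in DMSO cells. It rose by 0.63 ± 0.065 with the inhibitor (adjusted p = 3.43e-05) and differed by -0.52 ± 0.065 on release (adjusted p = 0.000119). The kept probe set of Map1lc3a is of a kind that the manufacturer marks for possible cross-hybridisation, and the gene's other probe set rose by 0.52.

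Map1lc3b, which encodes LC3B, the Atg8 protein most used as a marker of autophagosomes, had log2 levels of 10.31, 10.36 and 10.37 in released, 10.37 and 10.38 in inhibitor-treated, and 10.41, 10.49 and 10.43 in DMSO cells. All arrays were close in level, with the DMSO arrays highest. On this probe set no comparison passed the test, with -0.07 ± 0.060 between inhibitor-treated and DMSO cells (adjusted p = 0.417). Its other probe sets of similar level were lower with the inhibitor, by -0.55 (mean level 10.27; adjusted p = 0.000165) and -0.25 (mean level 9.56; adjusted p = 0.015) when every probe set was tested. None of the 4 probe sets of Map1lc3b was called higher in any comparison with DMSO.

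Gabarapl2, known as GATE-16 and also described in transport within the Golgi, had log2 levels of 10.79, 10.67 and 10.82 in released, 9.48 and 9.37 in inhibitor-treated, and 10.21, 10.26 and 10.23 in DMSO cells. The 3 groups did not overlap, with the inhibitor-treated arrays lowest and the released arrays highest. It differed by -0.80 ± 0.071 between inhibitor-treated and DMSO cells (adjusted p = 1.19e-05), by 1.33 ± 0.071 between released and inhibitor-treated cells (adjusted p = 4.42e-07), and by 0.53 ± 0.063 between released and DMSO cells (adjusted p = 0.000987). These calls held without any 1 of the 8 arrays. A second, dim probe set (mean level 4.44) gave -0.09, 0.44 and 0.35, of which the value between released and inhibitor-treated cells passed.

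**Figure D2:**
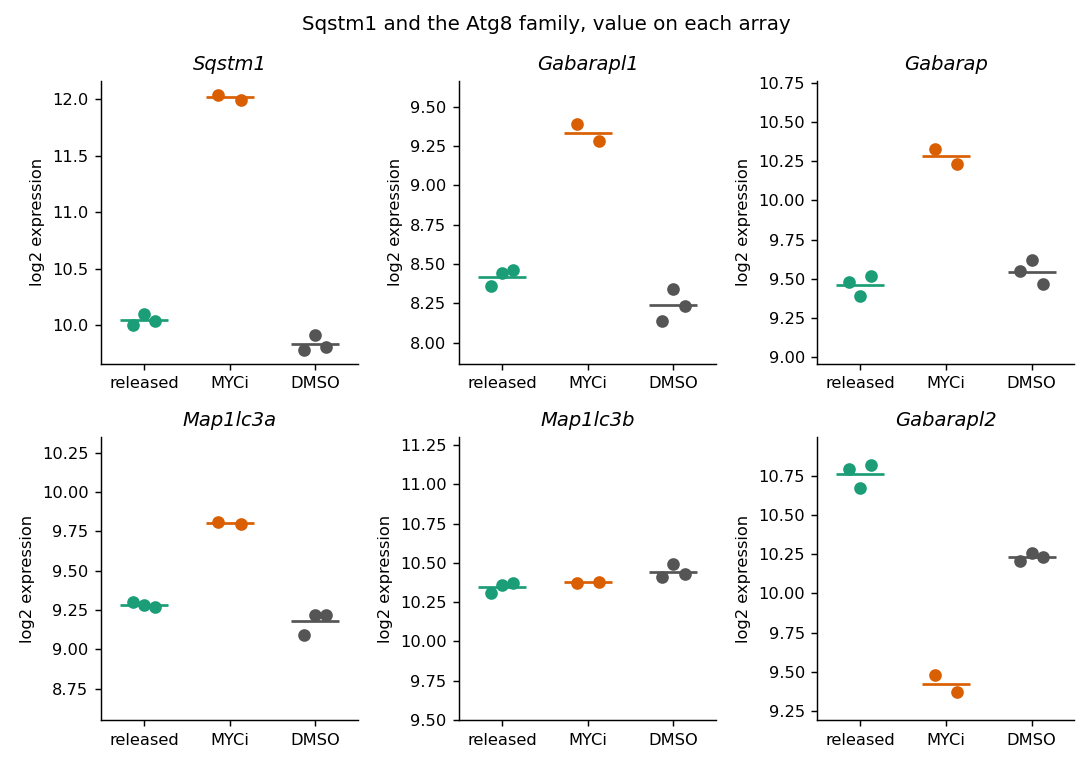
Log2 expression (y axis) of Sqstm1 and the 5 Atg8 genes on each of 3 released, 2 inhibitor-treated (MYCi) and 3 DMSO arrays (x axis); points are arrays, lines are group means, and axes differ in range. The inhibitor-treated arrays are highest for Sqstm1, Gabarapl1, Gabarap and Map1lc3a and lowest for Gabarapl2, whose released arrays (10.67 to 10.82) lie above DMSO (10.21 to 10.26).

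In the ULK initiation complex, 2 of 4 genes rose with the inhibitor and 0 fell, and all 4 were lower in released than in inhibitor-treated cells, a direction in which 19.2% of all genes passed. Rb1cc1 encodes FIP200, the scaffold of the complex. It had log2 levels of 6.41, 6.41 and 6.17 in released, 7.46 and 7.49 in inhibitor-treated, and 6.77, 6.51 and 6.49 in DMSO cells. The inhibitor-treated arrays lay above all others, by 0.88 ± 0.10 over DMSO (adjusted p = 8.4e-05), and the released arrays lay 1.14 ± 0.10 below them (adjusted p = 1.43e-05). Of its other probe sets, 1 at a mean level of 5.31 gave -0.08 with the inhibitor and 1 in the range of the Trpn controls gave -0.01, so the rise of Rb1cc1 rests on 1 of 3 probe sets. On release these other probe sets gave 0.30 (adjusted p = 0.258) and 0.04 (adjusted p = 0.797) when every probe set was tested.

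Ulk2, a kinase that overlaps in function with ULK1, had log2 levels of 4.34, 4.29 and 4.23 in released, 4.99 and 4.91 in inhibitor-treated, and 4.05, 4.41 and 4.37 in DMSO cells. It rose by 0.67 ± 0.10 (adjusted p = 0.000567) and differed by -0.66 ± 0.10 on release (adjusted p = 0.000612), at a low level where differences are compressed. When every probe set was tested, the other probe sets of Ulk2 gave 1.30 (adjusted p = 0.000144), 0.65 (adjusted p = 0.0615) and -0.05 (adjusted p = 0.814) with the inhibitor. On release they gave -1.03 (adjusted p = 0.000681), -0.51 (adjusted p = 0.139) and 0.08 (adjusted p = 0.682). Ulk1, the main initiating kinase, differed by 0.14 ± 0.067 with the inhibitor (adjusted p = 0.14) and by -0.26 ± 0.067 on release (adjusted p = 0.0105). The call of Ulk1 on release ended without inhibitor-treated replicate 1. Its dimmer probe set gave -0.28 on release (adjusted p = 0.116 when every probe set was tested). Atg13, the subunit that links the kinase to FIP200, differed by 0.08 ± 0.090 with the inhibitor (adjusted p = 0.524), while its 2 other probe sets rose by 0.47 and 0.36. On release Atg13 differed by -0.39 ± 0.090 (adjusted p = 0.0061), a call that ended without inhibitor-treated replicate 2. It was lower in released than in DMSO cells by -0.31 ± 0.080 (adjusted p = 0.044), a call that ended when any 1 of 7 arrays was left out and with only the arrays of these 2 groups.

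The PI3K complex had 2 of 6 genes higher and 2 lower with the inhibitor. UVRAG and ATG14 are alternative subunits of this complex, the first known for endosomal and the second for autophagosomal membranes. Uvrag had log2 levels of 7.74, 7.73 and 7.74 in released, 8.19 and 8.20 in inhibitor-treated, and 7.50, 7.66 and 7.51 in DMSO cells. It was higher on the inhibitor-treated arrays by 0.64 ± 0.067 (adjusted p = 4.05e-05), and the released arrays lay between both groups, 0.46 below the inhibitor-treated ones (-0.46 ± 0.067, adjusted p = 0.000351). Between released and DMSO cells the difference of 0.18 ± 0.060 did not pass the test (adjusted p = 0.11).

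Atg14 went the other way, at -0.42 ± 0.069 with the inhibitor (adjusted p = 0.000786) and 0.47 ± 0.069 on release (adjusted p = 0.000367). The regulatory subunit gene Pik3r4 (VPS15) followed a similar course, at -0.30 ± 0.066 (adjusted p = 0.00462) and 0.47 ± 0.066 (adjusted p = 0.000291). The catalytic subunit gene Pik3c3 (VPS34) differed by 0.01 ± 0.089 with the inhibitor (adjusted p = 0.929). Becn1, which encodes the shared subunit Beclin 1, rose narrowly by 0.28 ± 0.089 (adjusted p = 0.0312), and the call ended when any 1 of 4 arrays was left out. Ambra1, a regulator of Beclin 1, differed by -0.07 ± 0.062 (adjusted p = 0.423) on its brightest probe set and rose on its 2 dimmer ones, by 0.53 and 0.50.

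Of the lipid transfer and PI3P-binding genes, 3 of 5 rose and 2 fell with the inhibitor. ATG2A and ATG2B are closely related proteins that carry lipid to the growing membrane, and their transcripts had calls in opposite directions. Atg2a had log2 levels of 6.80, 6.81 and 6.80 in released, 6.57 and 6.49 in inhibitor-treated, and 7.10, 7.20 and 6.87 in DMSO cells. The inhibitor-treated arrays were lowest, at -0.53 ± 0.091 against DMSO (adjusted p = 0.00105), and the released arrays were 0.27 ± 0.091 above them (adjusted p = 0.0357), a call that ended when any 1 of 5 arrays was left out. Atg2b rose by 0.42 ± 0.087 with the inhibitor (adjusted p = 0.00333) and differed by -0.45 ± 0.087 on release (adjusted p = 0.00197).

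The scramblase gene Atg9a rose by 0.24 ± 0.076 (adjusted p = 0.0303), the PI3P-binding gene Wipi1 by 0.21 ± 0.070 (adjusted p = 0.0329), and Wipi2, whose product recruits ATG16L1, fell by 0.19 (-0.19 ± 0.069; adjusted p = 0.049). The call of Atg9a ended when either of 2 arrays was left out, that of Wipi1 when any 1 of 5 was, and that of Wipi2 when any 1 of 7 was. A second probe set of Wipi2 at nearly the same level gave -0.38 with the inhibitor.

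Among the ATG4 proteases, which trim Atg8 proteins before conjugation and free them afterwards, 2 of 4 genes rose with the inhibitor and 0 fell. Atg4c had log2 levels of 6.39, 6.29 and 6.31 in released, 7.01 and 6.95 in inhibitor-treated, and 6.27, 6.40 and 6.25 in DMSO cells. Both inhibitor-treated arrays lay above all others, by 0.67 ± 0.070 over DMSO (adjusted p = 3.64e-05), and released and DMSO arrays overlapped. On release Atg4c differed by -0.65 ± 0.070 (adjusted p = 4.59e-05). Its dimmer probe set (mean level 4.63) rose by 0.56 (adjusted p = 0.0051 when every probe set was tested). That probe set gave -0.15 on release (adjusted p = 0.398) and 0.42 between released and DMSO cells (adjusted p = 0.0564). Atg4b rose by 0.39 ± 0.090 (adjusted p = 0.0061), with 8.36 and 8.06 on the inhibitor-treated arrays, and the call ended without inhibitor-treated replicate 1. The second bright probe set of Atg4b gave 0.00. Atg4a and Atg4d did not pass in any comparison.

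In the conjugation system, 2 of 6 genes rose with the inhibitor and 0 fell, 33.3% in either direction against 41.5% of all genes. Atg3, the E2-like enzyme that passes Atg8 proteins to lipid, rose by 0.42 ± 0.075 (adjusted p = 0.00131) and differed by -0.41 ± 0.075 on release (adjusted p = 0.00145). Atg10, the E2-like enzyme for ATG12, rose by 0.47 ± 0.14 (adjusted p = 0.0233) at the lowest mean level of all members, 3.90, and the call ended when any 1 of 3 arrays was left out. Atg7, the shared E1-like enzyme, differed by 0.10 ± 0.066 with the inhibitor (adjusted p = 0.246) and differed by -0.22 ± 0.066 on release (adjusted p = 0.0201), where its 3 other probe sets gave 0.13, 0.01 and 0.20, none past the test. Atg5, Atg12 and Atg16l1, whose products form the complex that directs lipid attachment, passed in no comparison, with log2 differences between -0.18 and 0.00 with the inhibitor. A dimmer probe set of Atg5 fell by 0.34 (-0.34; adjusted p = 0.0146 when every probe set was tested).

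Between released and inhibitor-treated cells, 4 members were higher, where 22.7% of all genes were, and 16 were lower, where 19.2% of all genes were (41.9% in either direction). By at least 0.5, 1 was higher and 7 were lower, where 8.34% and 10.0% of all genes were. The arrays did not overlap for 6 higher and 22 lower members, where 61.9% of all genes did not overlap. Without genes of low level, 5 members were higher and 16 lower, against 31.4% and 27.4% of the genes then tested. This comparison shares the inhibitor-treated arrays with the one before, so opposite signs in both are no separate evidence. The median log2 difference was -0.21 over the members and 0.06 over all genes. Between released and DMSO cells, 2 members were higher, Gabarapl2 and Nbr1, where 4.66% of all genes were, and 1 was lower, Atg13, where 4.01% were (8.66% in either direction). By at least 0.5, only Gabarapl2 among the members was higher and 0 were lower, where 1.21% and 1.04% of all genes were. The arrays did not overlap for 10 higher and 9 lower members, where 28.6% of all genes did not overlap. Without genes of low level, 4 members were higher and 2 lower, against 8.57% and 7.81% of the genes then tested. The members' median there was -0.01 and their range -0.31 to 0.53, and over all genes the median was 0.00. When each array was centred on its median, 3 members were higher and 0 lower in limma, where 4.53% and 4.64% of all genes were, and 7 were lower at an unadjusted p under 0.05.

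Of the 34 members, 26 (76.5%) have more than 1 probe set, against 49.5% of all genes, and the members have 83 in all. When every probe set was tested between inhibitor-treated and DMSO cells, at least 1 probe set rose for 18 members, where this held for 22.2% of all genes, and at least 1 fell for 7 members, where this held for 26.8%. In that comparison 0 members had probe sets called in opposite directions, against 1.86% of all genes. Probe sets whose mean level was within the range of the Trpn controls gave no call between inhibitor-treated and DMSO cells.

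**Figure D3:**
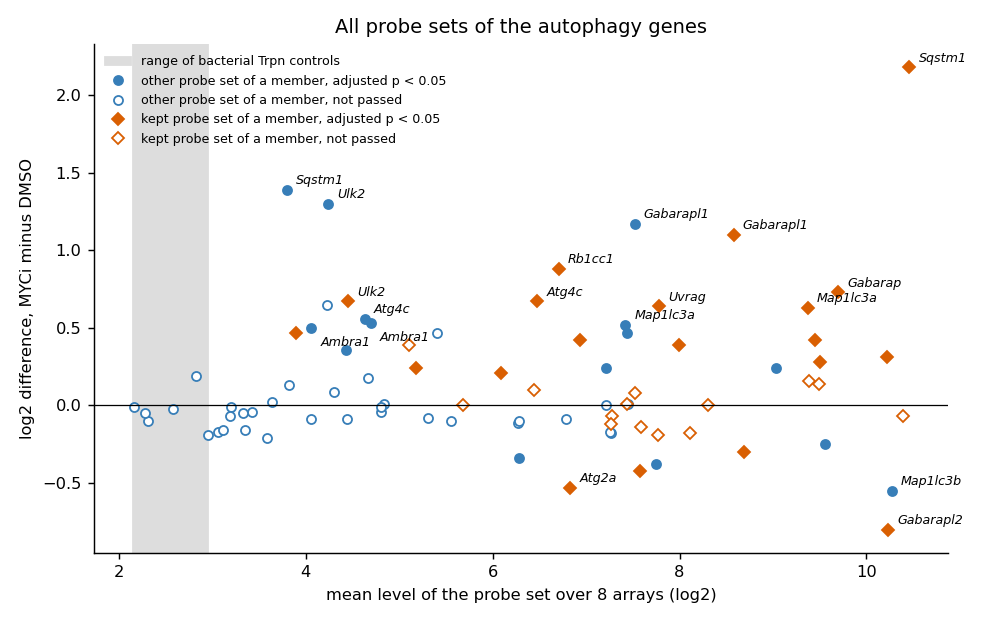
Log2 difference between inhibitor-treated and DMSO cells (y axis) against the mean log2 level (x axis) of all 83 probe sets of the members, with orange diamonds for kept and blue circles for other probe sets, filled where adjusted p was under 0.05 with every probe set tested. Both probe sets of Sqstm1, Gabarapl1 and Map1lc3a lie above 0.5, and the grey band marks the Trpn controls (2.15 to 2.95).

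Neighbouring parts of the pathway were read from 6 further lists, each to be set against the 19.2% of all genes that were higher and the 22.3% that were lower with the inhibitor. Among 19 initiation and membrane partners, 5 rose and 5 fell with the inhibitor (26.3% each, median 0.06), both shares near those of all genes. Atg16l2, a relative of ATG16L1, rose by 1.29 ± 0.11 (adjusted p = 9.14e-06), and Sh3glb1, a membrane-bending partner of Beclin 1, rose by 1.06 ± 0.062 (adjusted p = 8.99e-07). Among 19 fusion and maturation genes, 10 rose (52.6%) and 1 fell (5.26%), with a median of 0.22. Epg5, a tether between autophagosomes and lysosomes, rose by 1.09 ± 0.074 (adjusted p = 2.18e-06) and Plekhm1, an adaptor between Atg8 proteins and the fusion machinery, by 0.47 ± 0.062 (adjusted p = 0.000184).

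Among 19 other selective receptors and mitophagy genes, 10 rose (52.6%) and 4 fell (21.1%) with the inhibitor, with a median of 0.18. Bnip3, a mitophagy receptor of the outer mitochondrial membrane, had log2 levels of 8.08, 8.10 and 8.05 in released, 8.14 and 8.15 in inhibitor-treated, and 6.59, 6.85 and 6.65 in DMSO cells. Released and inhibitor-treated arrays were alike high, with -0.07 ± 0.081 between them (adjusted p = 0.526). Bnip3 was 1.38 ± 0.072 higher in released than in DMSO cells (adjusted p = 1.26e-05) and 1.45 ± 0.081 higher in inhibitor-treated than in DMSO cells (adjusted p = 6.5e-07). Pink1, the kinase that marks damaged mitochondria, rose by 0.72 ± 0.059 (adjusted p = 7.56e-06) and differed by -0.75 ± 0.059 on release (adjusted p = 5.44e-06). Among the 4 genes that fell with the inhibitor were Phb2, at -0.78 ± 0.073 (adjusted p = 1.95e-05), and Fundc1, at -0.68 ± 0.068 (adjusted p = 2.72e-05). Calcoco2 also fell, at -0.43 ± 0.064 (adjusted p = 0.000368). In released cells Calcoco2 was 0.82 ± 0.064 higher than in inhibitor-treated cells (adjusted p = 4.66e-06) and 0.39 ± 0.057 higher than in DMSO cells (adjusted p = 0.00284).

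Among 23 nutrient and energy sensing genes upstream of ULK1, 7 rose (30.4%) and 4 fell (17.4%) with the inhibitor, with a median of 0.04. Ddit4, which restrains mTORC1, rose by 1.89 ± 0.080 (adjusted p = 1.29e-07) and was -0.37 ± 0.071 in released against DMSO cells (adjusted p = 0.0112). Sesn3, a sestrin, rose by 0.87 ± 0.072 (adjusted p = 7.88e-06), and the arginine sensor gene Castor1 differed by -0.79 ± 0.059 (adjusted p = 4.19e-06). Of 18 transcriptional regulators, 10 rose (55.6%) and 4 fell (22.2%), with a median of 0.51. The list was not divided into activators and repressors, so these counts give no direction for the autophagy genes. Ddit3, which encodes the stress factor CHOP, rose by 2.85 ± 0.12 (adjusted p = 1.48e-07), Foxo3 by 1.02 ± 0.060 (adjusted p = 9.27e-07) and Flcn, a regulator of TFEB and TFE3, by 0.78 ± 0.059 (adjusted p = 4.55e-06).

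Of 21 lysosomal genes, 19 rose (90.5%) and 1 fell (4.76%) with the inhibitor, with a median of 1.07. Between released and DMSO cells 0 rose and 2 fell (9.52%, against 4.01% of all genes), with a median of -0.01. In that last comparison limma called Atp6v1h and Lamp2 lower, by 0.30 (-0.30 ± 0.072; adjusted p = 0.0307) and 0.27 (-0.27 ± 0.067; adjusted p = 0.0368). The median with the inhibitor was thus 0.19 for the autophagy members and 1.07 for the lysosomal genes, a difference between lists that was not tested.

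**Figure D4:**
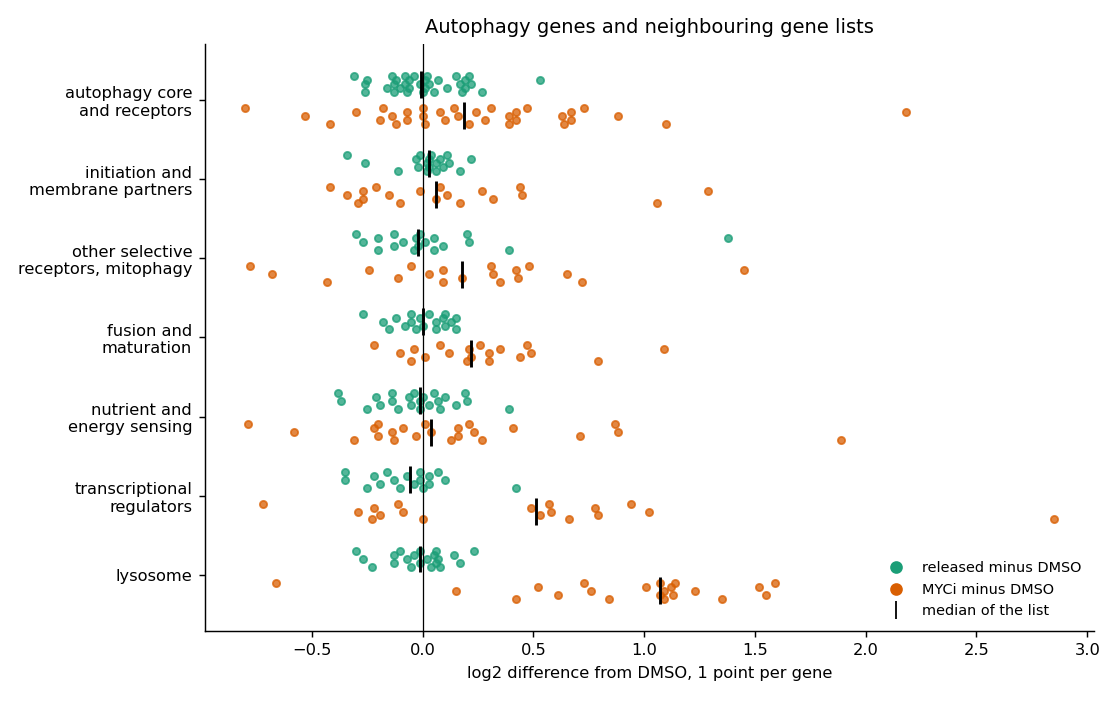
Log2 difference from DMSO (x axis) of each gene of the autophagy members and of 6 neighbouring lists (y axis), for released cells (green) and inhibitor-treated cells (orange), with the list median as a black bar. The inhibitor-treated medians run from 0.04 for nutrient and energy sensing to 1.07 for the lysosome, and the released medians lie between -0.06 and 0.03; the green point at 1.38 is Bnip3.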

How the data were processed

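Biotin-labelled total RNA of 8 ESC samples was hybridised to Affymetrix GeneChips. The deposited table holds log2 expression values of each probe set. The authors' tools were RMA, oligo 1.32.0 and limma 3.2.15 by the submitters' processing notes, and the scale was read from the values (1.69 to 13.76). RMA corrects background, equalises arrays by quantiles and summarises probes. Arrays give no depth, so their number limits precision.

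Of 45101 probe sets, 34945 have 1 gene symbol in the platform annotation, 932 several and 9160 none, and 64 are controls. RefSeq (GRCm38.p6) held the gene numbers of 34741, with 0 symbols changed. The 18193 genes were fitted without a filter in R 4.3.3 with limma 3.58.1 (3 group means, 5 residual degrees of freedom). Two-sided p-values received Benjamini-Hochberg adjustment over all genes in each of 3 comparisons (threshold 0.05). The procedure was tested on simulated data. There 6.67% of calls were false for inhibitor-treated against DMSO, 5.26% for released against inhibitor-treated, and 4.57% for released against DMSO.

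The members and lists were chosen with earlier results of these data known. Array values are given for members past the threshold with a log2 difference of at least 0.5 in any comparison, and for the Atg8 family; from other lists, up to 3 genes with the smallest p per comparison could be named. Some genes of the other lists were not analysed here, nor were promoter windows of Map1lc3a, Rb1cc1, Becn1, Pik3c3, Atg12 and Atg16l1. Alternatives were other probe sets and their mean, a filter on level, median centring, a variance trend with robust fit, only the groups compared, a threshold of 0.01, a replicate block, and each array left out once.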

Additional observations from a re-analysis of the deposited data

How the results depend on the processing

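The counts of members between inhibitor-treated and DMSO cells (16 higher, 5 lower) and between released and inhibitor-treated cells (4 and 16) stayed within 1.5 times under all alternatives run; without 1 array they ranged from 12 to 16 and 4 to 5, and from 3 to 4 and 12 to 16. Between released and DMSO cells the small counts (2 and 1) moved. They were 4 and 2 without genes of low level, 6 and 4 with a variance trend and robust fit, 1 and 0 at an adjusted p under 0.01, and 2 higher and 2 lower with every probe set. With only the arrays of the 2 groups and with the replicate block 0 members were lower (5 at an unadjusted p under 0.05 in each), as with median centring, and without 1 array the counts ranged from 1 to 3 and 0 to 1. Over all genes this comparison had 847 higher and 729 lower, 1382 and 1259 with a variance trend and robust fit, and 498 to 720 and 432 to 624 without 1 array.

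The labels do not say whether replicate numbers mark shared cultures, and a check of the values cannot settle it. Deviations of the 2 inhibitor-treated arrays mirror each other, so the pairs compared are not independent. Deviations from group means of same-numbered arrays correlated between -0.0562 and 0.0141 over 7 pairs, and 0 of 3 released arrays correlated best with the DMSO array of its number. With the replicate block, members higher and lower numbered 15 and 4 with the inhibitor, 4 and 15 on release, and 2 and 0 between released and DMSO cells.

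Reversed signs, counted where the main value or the alternative passed the test, came from other probe sets or their mean. Between inhibitor-treated and DMSO cells Ambra1 turned to 0.32 with the mean and 0.53 and 0.50 on other probe sets, and single other probe sets gave -0.05 for Ulk2, -0.08 and -0.01 for Rb1cc1, -0.04 for Becn1, -0.16 for Atg2b, -0.21 and -0.02 for Wipi1, -0.17 for Atg4b and -0.01 for Atg3. Between released and inhibitor-treated cells they gave 0.11 for Calcoco1, 0.34 for Map1lc3b, 0.08 for Ulk2, 0.30 and 0.04 for Rb1cc1, 0.25 for Atg2b, 0.03 for Atg3, and 0.03 (mean), 0.13, 0.01 and 0.20 for Atg7. The cause was not tested. Of 34 members, 15, 17 and 22 kept their result under all alternatives in the 3 comparisons (inhibitor-treated against DMSO, released against inhibitor-treated, released against DMSO). A kept result stayed on its side of the threshold, with the same sign if it passed. Sign changes were not counted where neither value passed. An example is Atg7 with the inhibitor, at 0.10, and at -0.11, -0.10 and -0.19 on its other probe sets.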

Other observations

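Transcripts of the MiT/TFE factors, which activate lysosomal and autophagy genes, were looked at after their values were seen. Tfeb had log2 levels of 7.16, 7.17 and 7.31 in released, 7.11 and 7.05 in inhibitor-treated, and 7.36, 7.39 and 7.36 in DMSO cells, with -0.29 ± 0.068 between inhibitor-treated and DMSO cells (limma adjusted p = 0.00639). Tfe3 differed by -0.19 ± 0.067 (limma adjusted p = 0.0426) and Mitf by -0.72 ± 0.067 (limma adjusted p = 1.73e-05). Tfec, also of this family, differed by 0.00 ± 0.091 (limma adjusted p = 0.997), with a DMSO mean of 2.51, in the range of the Trpn controls. These factors are known to be controlled by their place in the cell, which arrays do not measure. Their part in the changes above was not tested. Atf4, an integrated stress response factor, was 0.58 ± 0.067 higher (limma adjusted p = 7.72e-05).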
